A study of Mus musculus with 2 samples.

Results

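A set of 6281 tiles of 2500 bp was described that were rich in measured CpGs and carried little methylation in both *Rex1* states of mouse embryonic stem cells (ESCs). A tile belonged to the set when it was autosomal, held at least 40 CpGs measured in both libraries, and had a mean methylation level under 20% in each. They were 2.37% of the 264791 autosomal tiles with a shared CpG and 86.7% of the 7241 tiles with at least 40 shared CpGs, and they held 437546 of the 1667575 shared autosomal CpGs, or 26.2%. Because the levels in both libraries chose the tiles, tile levels and tile changes are descriptions, without a test.

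The data are 1 library of reduced representation bisulfite sequencing (RRBS), a measure of DNA methylation, for each *Rex1* state, with no replicate. The cells of a library had been sorted as *Rex1*-high or as *Rex1*-low. Both groups were E14 ESCs of 129/Ola background that carried the Rex1-dGFP knockin reporter, in which a destabilised GFP reports expression of *Rex1* (also named *Zfp42*), and both were cultured on gelatin with LIF and 10% serum. The states were therefore sorting gates of 1 reporter line, and sort, culture and library could not be told apart from the state. The *Rex1*-high library held 60718476 calls at 3300733 positions and the *Rex1*-low library 61024229 calls at 2901301 positions, where a call is the reading of a cytosine as methylated or unmethylated. A CpG is a C followed by a G. Its level is the percentage of calls that were methylated, averaged over the 1 or 2 deposited lines of the position that had at least 5 calls.

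Most CpGs of a mammalian genome are methylated, and CpGs are depleted because methylated cytosine mutates readily. CpG islands, short stretches in which CpGs remained frequent, escape this methylation and hold the start sites of many genes, of housekeeping genes and of many developmental regulators among them. RRBS enriches for islands because it sequences short fragments cut at CpG-containing sites: MspI cuts at CCGG and TaqI at TCGA, and both were used here.

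The promoters of 4 genes, all with their start site in a tile of the set, show what the methylation levels rested on. *Polr2a* encodes the largest subunit of RNA polymerase II, Uhrf1 brings the maintenance methyltransferase to newly replicated DNA, and Klf2 is a transcription factor of the pluripotency network. The *Susd1* promoter, of a gene for a protein with sushi domains, was chosen after its values were seen. It had the greatest rise among the ranked promoters of the set with at least 8 measured CpGs outside these sites. The ranking did not hold every such promoter. The sequences are the 250 bases before the RefSeq start site on the gene's strand in build GRCm38.p6, at chr11:69758634-69758883 (minus strand) for *Polr2a*, chr17:56304063-56304312 (plus strand) for *Uhrf1*, chr8:72318812-72319061 (plus strand) for *Klf2* and chr4:59438634-59438883 (minus strand) for *Susd1*. Capitals mark the recognition sites CCGG and TCGA, which read the same on both strands.
Polr2a: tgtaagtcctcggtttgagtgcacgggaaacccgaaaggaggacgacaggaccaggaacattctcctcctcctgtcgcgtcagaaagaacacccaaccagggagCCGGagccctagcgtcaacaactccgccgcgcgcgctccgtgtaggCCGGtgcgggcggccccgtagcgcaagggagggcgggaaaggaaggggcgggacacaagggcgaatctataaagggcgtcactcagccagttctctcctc
Uhrf1: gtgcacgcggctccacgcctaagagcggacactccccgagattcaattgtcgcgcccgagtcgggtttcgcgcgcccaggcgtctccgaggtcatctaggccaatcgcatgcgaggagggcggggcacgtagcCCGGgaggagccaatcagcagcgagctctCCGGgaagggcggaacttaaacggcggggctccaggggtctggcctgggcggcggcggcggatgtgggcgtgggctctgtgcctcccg
Klf2: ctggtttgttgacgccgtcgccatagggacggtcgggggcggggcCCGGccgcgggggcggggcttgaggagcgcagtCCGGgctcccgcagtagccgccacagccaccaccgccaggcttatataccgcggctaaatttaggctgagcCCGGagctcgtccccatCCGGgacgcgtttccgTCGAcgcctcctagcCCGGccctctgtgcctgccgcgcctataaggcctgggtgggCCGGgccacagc
Susd1: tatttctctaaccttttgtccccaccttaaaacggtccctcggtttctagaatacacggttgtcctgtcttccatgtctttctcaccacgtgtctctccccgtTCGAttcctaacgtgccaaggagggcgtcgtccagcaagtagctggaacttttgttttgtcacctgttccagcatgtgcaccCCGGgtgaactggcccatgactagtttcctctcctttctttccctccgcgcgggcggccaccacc

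In the *Polr2a* promoter, the CpG of the first capital site, 145 bases before the start, had a level of 54.2% in *Rex1*-high cells (18 of 31 calls methylated) and 54.9% in *Rex1*-low cells (51 of 84). The CpG of the other capital site, 99 bases before the start, had 64.0% and 46.2%, and a CCGG 20 bases past the start had 52.8% and 33.2%. By contrast, the 17 CpGs in other sequence within the window, which reaches 50 bases past the start, had 2 methylated calls of 483 in *Rex1*-high cells and 10 of 753 in *Rex1*-low cells. Their mean levels were 0.654% and 2.15%, and the highest of them, 20% in *Rex1*-low cells, had 1 methylated call of 5. High and low CpGs thus alternated within a stretch of 300 bases, and the high ones were those in recognition sites.

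The *Uhrf1* promoter had the same arrangement. Its capital sites, 116 and 87 bases before the start, had levels of 56.7% and 47.1% in *Rex1*-high cells and of 57.5% and 53.8% in *Rex1*-low cells, and a CCGG across the start had 48.1% and 50%. One site 19 bases past the start stood apart, with 0 of 5 and 0 of 10 calls methylated. The 19 other CpGs had 3 methylated calls of 637 and 2 of 755. In *Klf2*, 4 of the capital sites had shared calls, with a mean of 78.9% in *Rex1*-high cells and 59.7% in *Rex1*-low cells. The 9 other CpGs averaged 0.396% and 0.315%. Only 5 calls covered each of the pair of *Klf2* sites that were at 100% in *Rex1*-high cells.

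*Susd1* differed from these at the CpGs in lower case. Its 8 other CpGs had 22 methylated calls of 230 in *Rex1*-high cells, a pooled share of 9.57% (95% Wilson interval 6.40 to 14.1), and 69 of 212 in *Rex1*-low cells, 32.5% (26.6 to 39.1). The level was higher in *Rex1*-low cells at 7 of them and 0 in both libraries at the remaining one. These intervals and all others given here cover counting error only, because calls on 1 read and reads copied by PCR are not independent.

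**Figure D1:**
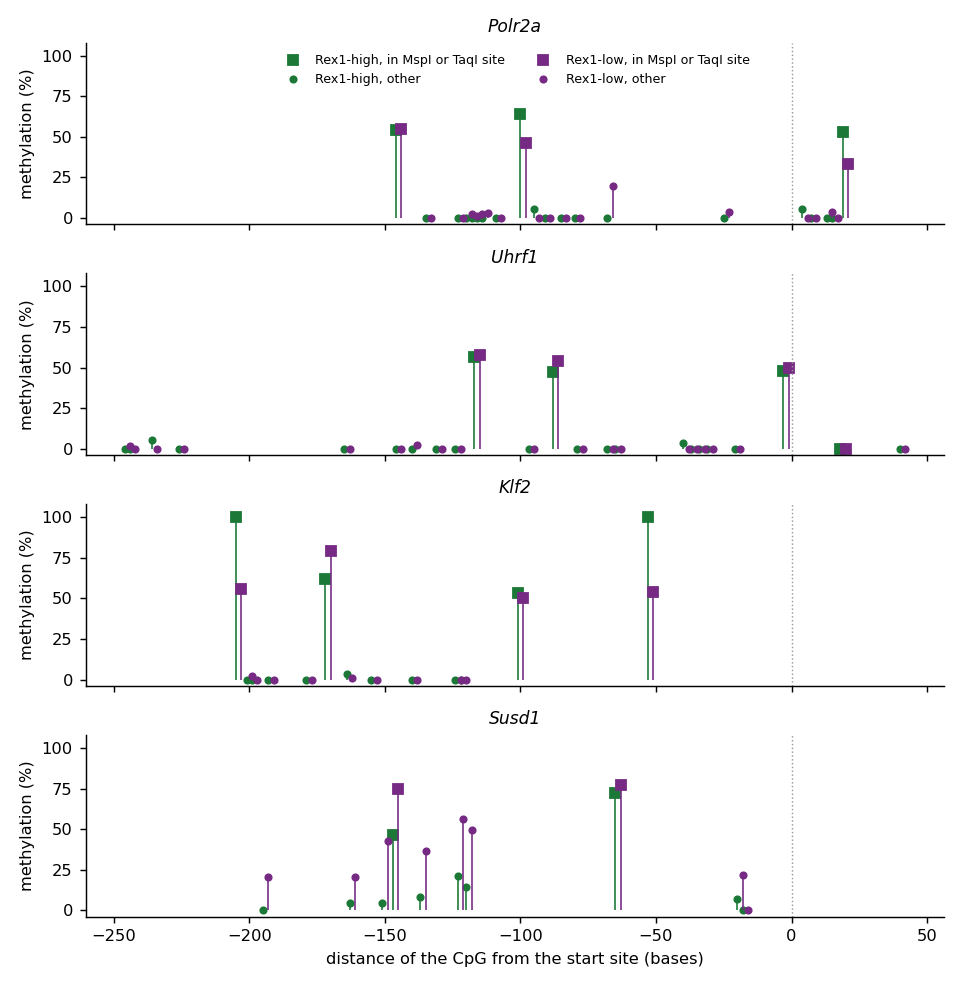
Methylation of each measured CpG (vertical axis, %) against its distance from the start site (horizontal axis, bases) in the *Polr2a*, *Uhrf1*, *Klf2* and *Susd1* promoters, in *Rex1*-high cells (green) and *Rex1*-low cells (purple). Squares are CpGs in MspI or TaqI sites and circles are other CpGs, which lie at 5.56% or below in the upper 3 promoters, except 1 *Polr2a* CpG at 20% (1 of 5 calls) in *Rex1*-low cells, and between 0 and 56.4% in *Susd1* in *Rex1*-low cells.

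Across the 6281 tiles, the median level was 11.7% in *Rex1*-high cells (quartiles 10.1 and 13.6, range 2.48 to 19.95) and 13.1% in *Rex1*-low cells (quartiles 10.97 and 15.4, range 3.83 to 19.9997). The median change, *Rex1*-low minus *Rex1*-high, was 1.25 percentage points (quartiles 0.356 and 2.27, range -4.11 to 7.89), and 5205 tiles (82.9%) were higher in *Rex1*-low cells, against 96.8% of all autosomal tiles with at least 3 shared CpGs and 99.5% of the other tiles with at least 40. The pooled calls of a tile (median 2069 and 2840) had Wilson intervals of plus or minus 1.47 points in *Rex1*-high cells and 1.30 in *Rex1*-low cells at the median. After the lines of a position were summed and the deeper library was thinned at each CpG to the calls of the other, the median change was 1.94 points. Summing lines without thinning gave 1.78 points, so the 1.94 points are not an effect of depth alone. The median change was 1.89 points with a minimum of 10 calls per line and 0.439 points with a level limit of 10%. With only the CpGs outside recognition sites, in the promoters joined to the set below, it was 0.116 points over 3322 tiles. That value also leaves out every CpG beyond those promoters. Within them, CpGs of the set changed by 0.585 points on average with sites included. Leaving out positions whose lines disagreed, one at 80% or more and another at 20% or less, gave median levels of 7.32% and 8.48%, and taking the median over CpGs as the tile level gave 0 in both libraries, with 39.3% of tiles higher in *Rex1*-low cells. The other 960 tiles with at least 40 shared CpGs, which missed the limit in a library, went from a median of 18.9% to 24.0%, with a median change of 5.79 points. All 158677 autosomal tiles with at least 3 shared CpGs went from 57.3% to 85.1%, with a median change of 23.5 points. Since a tile under 20% in both libraries cannot change by more than 20 points, the smaller change of the set was fixed in part by its definition.

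By a rule of size, a tile was counted when its level changed by at least 5 points and the intervals of its pooled calls did not overlap. Of the tiles in the set, 56 (0.892%) were higher in *Rex1*-low cells by this rule and 0 were lower, while 70.0% of all tiles with at least 3 shared CpGs were higher and 0.0158% were lower. For single CpGs, the rule asked for 20 points and intervals that did not overlap. It counted 7599 CpGs of the set (1.74%) as higher in *Rex1*-low cells, where 13.8% of all shared autosomal CpGs were, and 1571 (0.359%) as lower, where 0.216% were. The definition of the set used this contrast, so nothing is read from these shares.

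A tile level of 12% could come from many CpGs at a low level or from a few at a high one. The median CpG of the set was at 0 in both libraries, and its mean was 11.6% in *Rex1*-high and 13.0% in *Rex1*-low cells. Of the 437546 CpGs, 61.7% had no methylated call in *Rex1*-high cells and 53.1% had none in *Rex1*-low cells, and 185234 (42.3%) had none in either. The median CpG had 31 and 38 calls, so that 0 of this many calls allows a level of up to 9.68% and 7.89%, taking 3 methylated calls as the limit. At the other end, 19.4% of the CpGs in *Rex1*-high cells and 19.8% in *Rex1*-low cells were at 20% or above, and these gave 93.0% and 92.0% of the summed level. Few CpGs lay between: 4.91% and 6.34% were over 5% and under 20%.

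Of the 84780 at 20% or above in *Rex1*-high cells, 95.4% were so in *Rex1*-low cells, and of the 86747 in *Rex1*-low cells 93.3% were so in *Rex1*-high cells. Over all shared autosomal CpGs these shares were 98.9% and 92.4%, and the levels that chose the set enter both. Their levels gathered around the middle of the scale, with 12.7% of all CpGs of the set from 40% to under 60% in *Rex1*-high cells and 10.2% in *Rex1*-low cells, whereas CpGs at 95% or above made up 0.997% and 1.49%. Between the libraries, 34.6% of the CpGs were higher in *Rex1*-low cells, 22.2% were lower and 43.2% were equal, against 66.2%, 14.1% and 19.7% of all shared autosomal CpGs. Near 0 these shares also depend on depth: thinning to equal calls at each CpG raised the share at 0 in both libraries from 42.3% to 49.0%.

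**Figure D2:**
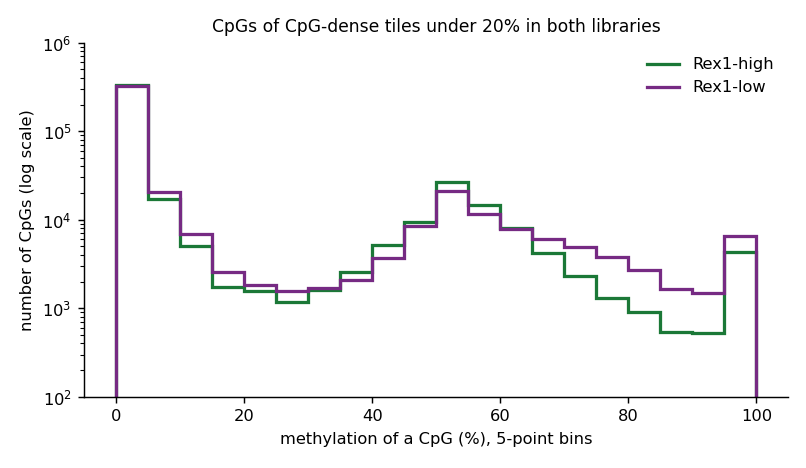
Number of CpGs (vertical axis, log scale) by methylation level in 5-point bins (horizontal axis, %) over the 437546 CpGs of the set in each library. Most CpGs are in the lowest bin (328932 in *Rex1*-high and 320888 in *Rex1*-low cells), and a second mode lies at 50% to 55%.

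The middle levels were in part averages of lines that disagreed. Of the positions with 2 usable lines, 9.62% in *Rex1*-high cells (34800 positions) paired a line of at least 80% with a line of at most 20%, and 8.41% did in *Rex1*-low cells (29643). No strand is named for the lines, so it is unknown what sets the 2 lines of a position apart.

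To see which CpGs had the methylated calls, the set was joined to RefSeq promoters, sequences of 250 bases before to 50 bases after a start site. The promoters were placed by the spacing of their CpGs, which had to coincide with at least 10 deposited positions at 1 place in the genome. Of 32851 promoters, 14281 had enough CpGs, and 8857 autosomal ones were placed. For 4850 of these (54.8%), of 4297 genes, the start site lay in a tile of the set, and 3705 tiles (59.0%) held at least 1. This gave the surrounding sequence of 87862 CpGs, 20.1% of the CpGs of the set. The other CpGs have no sequence here, and placed promoters are rich in CpGs by construction.

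Among CpGs with a known sequence, most methylated calls lay at CpGs within a recognition site of the enzymes. The 14958 CpGs in CCGG or TCGA, 17.0% of those with a known sequence, had a mean level of 53.5% in *Rex1*-high and 56.0% in *Rex1*-low cells, with medians of 52.9% and 54.3%. The 72904 CpGs in any other sequence had means of 0.845% and 1.03% and medians of 0. Pooled over calls, other CpGs had 18921 methylated of 2269247 calls in *Rex1*-high cells, 0.834% (Wilson interval 0.822 to 0.846), and 31945 of 3280695 in *Rex1*-low cells, 0.974% (0.963 to 0.984). Recognition sites held 92.8% of the summed level in *Rex1*-high cells and 91.8% in *Rex1*-low cells, and 99.0% and 98.7% of the CpGs at 20% or above. Outside them, 145 CpGs in *Rex1*-high cells and 181 in *Rex1*-low cells reached 20%.

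This held for the sites of both enzymes. The 13501 CpGs in CCGG averaged 53.5% and 55.9%, and the 1457 in TCGA 53.3% and 57.4%. Each of the 14 other 4-letter contexts of a CpG averaged between 0.697% and 0.982% in *Rex1*-high cells and between 0.948% and 1.23% in *Rex1*-low cells. Of 4791 promoters of the set with both kinds of CpG, the sites averaged higher than the other CpGs in 4785 in *Rex1*-high cells and in 4773 in *Rex1*-low cells. Other CpGs near a site were as low as those away from it. Those 1 to 5 bases from the nearest site averaged 0.843% and 1.05%, those 21 to 40 bases away 0.821% and 0.995%, and those 81 to 160 bases away 1.13% and 1.505%.

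**Figure D3:**
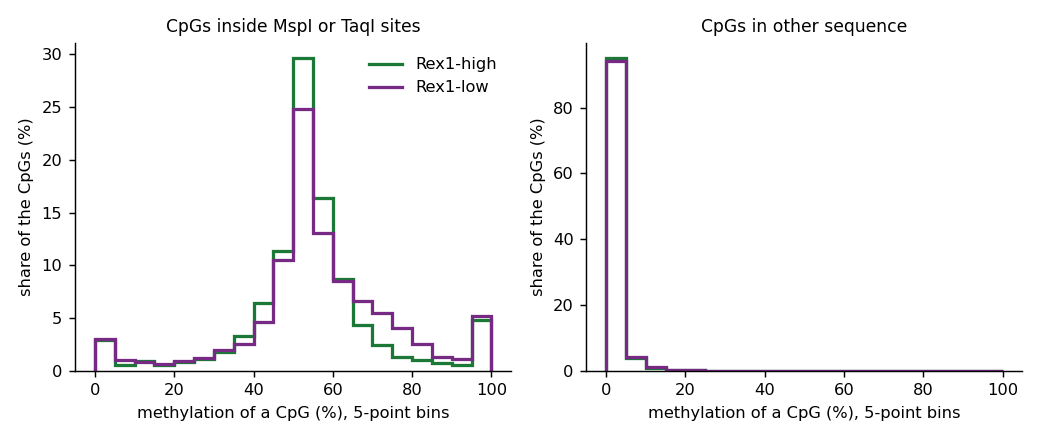
Share of CpGs (vertical axis, %) by methylation level in 5-point bins (horizontal axis, %) for CpGs inside MspI or TaqI sites (left) and in other sequence (right), in *Rex1*-high (green) and *Rex1*-low cells (purple). Levels from 40% to 60% hold 63.8% and 52.9% of the site CpGs and 0.0370% and 0.0494% of the others.

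The disagreement between lines was also a property of the sites. Among site CpGs with 2 usable lines, the higher line averaged 82.0% and the lower 24.5% in *Rex1*-high cells, and 82.7% and 29.2% in *Rex1*-low cells. A line of at least 80% was paired with one of at most 20% in 44.2% of them in *Rex1*-high and 39.7% in *Rex1*-low cells, but in 0.0290% and 0.0311% of other CpGs. Site CpGs with 1 usable line lay mostly at either end: in *Rex1*-high cells 36.8% were at 20% or below and 46.3% at 80% or above, and in *Rex1*-low cells 36.9% and 49.6%. Per the labels, libraries were made from fragments cut at these sites, whose ends were then filled in and extended before bisulfite treatment. The part of these steps in the levels at the sites was not tested.

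Position in the promoter made little difference in *Rex1*-high cells. In *Rex1*-low cells, both classes were higher in the bins farthest before the start than in those next to it. From 250 bases before the start site to 50 after it, in bins of 50 bases, site CpGs averaged 53.1% to 53.8% in *Rex1*-high cells and 55.0% to 57.2% in *Rex1*-low cells. Other CpGs averaged 0.898% in the bin farthest before the start and 0.814% in the last 50 bases before it in *Rex1*-high cells. The same bins had 1.22% and 0.932% in *Rex1*-low cells, and the bin just past the start had 0.848% in *Rex1*-high and 0.995% in *Rex1*-low cells.

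**Figure D4:**
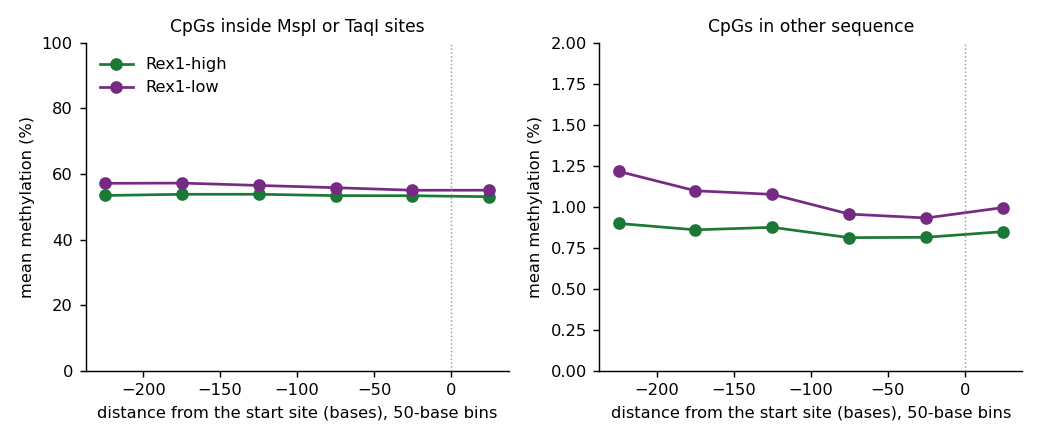
Mean methylation (vertical axis, %) by distance from the start site in 50-base bins (horizontal axis, bases) of CpGs inside MspI or TaqI sites (left, axis to 100%) and in other sequence (right, axis to 2%). Site CpGs stay between 53.1% and 57.2% and the others between 0.812% and 1.22%.

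The level at the sites did not mark the set alone. In 401 promoters placed in CpG-dense tiles that missed the 20% limit, the median promoter averaged 0.962% and 1.22% at other CpGs in *Rex1*-high and *Rex1*-low cells, and 53.1% and 58.1% at its sites. Over all placed autosomal promoters, grouped by the mean of their other CpGs in *Rex1*-high cells, the 7313 under 2% had a median of 53.1% at their sites, the 93 from 10% to under 30% a median of 58.9% and the 24 from 30% to under 60% a median of 70.1%. The median of the sites was thus above 50% in each group and higher where the levels of the other CpGs were higher.

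CCGG occurred in 99.2% of the promoters placed in the set and in 52.8% of all 32851 RefSeq promoters, and TCGA in 34.4% and 22.0%. Both motifs are palindromes, so 1 search covers both strands, and they do not overlap at the same CpG. A promoter without a cut nearby yields no RRBS fragment and could not be placed.

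At the CpGs outside the sites, 4273 promoters of the set with at least 8 such CpGs had a median level of 0.692% in *Rex1*-high cells and 0.792% in *Rex1*-low cells. They were under 2% in 93.9% and 91.2% of cases. The median change was 0.100 points (quartiles -0.332 and 0.589), and 56.2% were higher in *Rex1*-low cells, as were 57.5% of all 6818 placed autosomal promoters with at least 8 such CpGs. Among the 87862 CpGs with a known sequence, site CpGs changed by 2.56 points on average and other CpGs by 0.180 points. The sites made up 74.5% of the summed change of these 87862 CpGs only. Their mean went from 9.80% to 10.4%, while the mean of all CpGs of the set went from 11.6% to 13.0%. The size of the change at the sites depended on the averaging: the mean went from 53.5% to 56.0% as above, from 54.2% to 60.5% with a minimum of 10 calls per line and from 53.8% to 59.6% with lines summed first, and the pooled calls went from 54.1% to 62.1%. By the rule of size for CpGs, 923 site CpGs (6.17%) were higher in *Rex1*-low cells and 301 (2.01%) lower, and of the 72904 other CpGs 27 were higher and 1 was lower. Over all shared autosomal CpGs these shares were 13.8% higher and 0.216% lower, and nothing is read from the comparison, since the contrast chose the set.

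A few of these 4273 promoters went past this range, and those with fewer than 8 CpGs outside sites were not ranked. At their CpGs outside sites, 21 rose by 5 points or more in *Rex1*-low cells and 6 fell by as much, or 0.491% and 0.140%. Of the 6818 placed promoters, 2.46% rose and 0.205% fell by this much. After *Susd1*, the greatest rise in the ranking was at *Grip1*, which encodes a scaffold protein that binds glutamate receptors. Its level went from 8.44% to 23.2%, but with 6 of 115 and 31 of 235 calls methylated. *Sub1*, a transcriptional coactivator, went from 2.44% (11 of 418 calls) to 13.3% (114 of 687), and *Gm52286* from 3.70% to 14.0%. *Sphk1*, a kinase that makes sphingosine-1-phosphate, had 51 methylated calls of 557 and 199 of 946, with levels of 8.93% and 18.1%. *Wnt1*, a secreted ligand of Wnt signalling, had levels of 3.98% and 11.9% (23 of 545 and 64 of 536 calls). The intervals of pooled calls did not overlap at *Susd1*, *Sub1*, *Gm52286*, *Sphk1* and *Wnt1*, and overlapped at *Grip1*. All these promoters stayed below their own sites, which averaged 54.5% to 76.1% in *Rex1*-low cells.

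Among the ranked promoters, the greatest falls were at *Sh3gl1* and *Mybl2*. The ranking did not hold every promoter that was counted above as fallen by 5 points or more. *Sh3gl1*, which encodes an endophilin of the endocytic pathway, had 11 of 182 calls methylated in *Rex1*-high cells and 0 of 134 in *Rex1*-low cells, and 0 of 134 allows up to 2.24% by the limit of 3 calls. *Mybl2*, a cell-cycle transcription factor, went from 9.02% (23 of 582 calls) to 0.582% (3 of 522). *Irf2bp2*, a transcriptional corepressor, had levels of 5.91% and 0.615%, *Larp4*, an RNA-binding protein gene, 6.07% and 0.818%, and *Stk35*, a kinase gene, 5.98% and 0.909%. In pooled calls *Irf2bp2* and *Stk35* had 11 methylated calls each in *Rex1*-high cells, and the intervals of the libraries overlapped at both. Pooled calls gave smaller falls than the mean over CpGs, from 3.95% to 0.575% at *Mybl2*, from 2.75% to 0.971% at *Irf2bp2*, from 3.30% to 0.644% at *Larp4* and from 3.13% to 0.562% at *Stk35*. By pooled calls, 17 of the 4273 promoters rose by 5 points or more and 2 fell by as much. These promoters were named by the size of their change, after their values were seen.

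**Figure D5:**
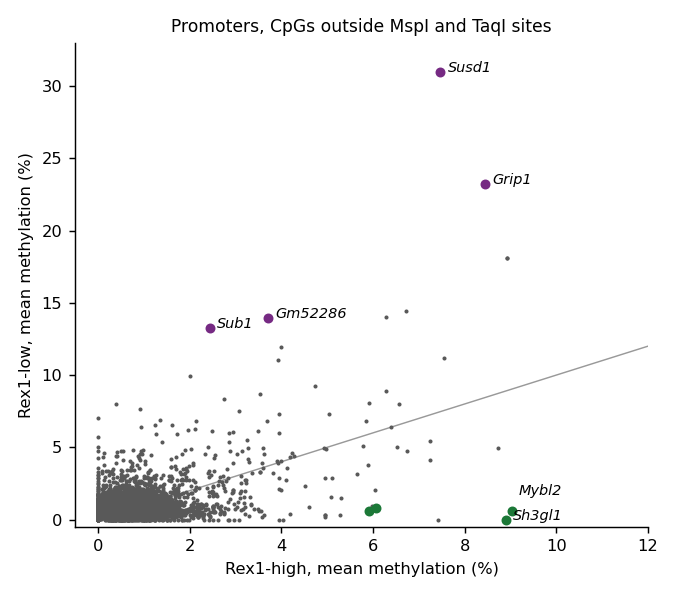
Mean methylation of the CpGs outside MspI and TaqI sites in *Rex1*-low cells (vertical axis, %) against *Rex1*-high cells (horizontal axis, %), 1 point for each of 4273 promoters with at least 8 such CpGs, with the line of equal levels. Most points are under 2% on both axes. Purple marks the 4 greatest rises in the ranking, up to 30.9% at *Susd1*, and green its 4 greatest falls.

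Genes of 4 lists were looked up by placed start site. Among housekeeping genes, 5 of 14 were placed, and *Polr2a*, *Ppia* (the prolyl isomerase cyclophilin A) and *Tbp* (the TATA-binding protein) had a start site in the set. *Ppia* averaged 0.893% and 0.134% at its other CpGs, with 53.1% and 53.7% at its sites, in *Rex1*-high and *Rex1*-low cells. *Tbp* averaged 0.505% and 2.75% at its other CpGs, with 1 of 184 and 3 of 123 calls methylated. Its 2 sites averaged 29.2% and 50%, and the lower of them was at 0 in each library. *Rpl13a* and *Tubb5* were placed outside the set.

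Of 16 developmental regulators 5 were placed, and *Nkx2-2* and *Olig2*, transcription factors of the neural tube, lay in the set. *Olig2* had 1.67% and 2% at its other CpGs and 52.8% and 62.1% at its sites. The *Nkx2-2* tile, chr2:147010001-147012500 in the build of the deposited positions, mm9, had 19.9% and 19.98% and was among the 3 highest of the set by the mean of both libraries, while no CpG of the placed promoter window itself was shared by the libraries. *Pax6*, an eye and neural regulator, marked the outer edge: the tile of one of its start sites, chr2:105507501-105510000, had 20.3% in *Rex1*-high and 19.5% in *Rex1*-low cells and was nearest above the limit in *Rex1*-high cells among dense tiles under it in *Rex1*-low cells. Its placed promoter there had 1.33% and 2.501% at the 12 other CpGs and 62.0% and 61.9% at the 4 sites. Another placed *Pax6* promoter, in a tile with 5 shared CpGs, had 6.88% and 11.03% at its 9 other CpGs. *Foxa2* and *Lhx2* lay outside the set.

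Of 13 pluripotency genes 4 were placed, and *Klf2*, *Klf4* and *Sox2* lay in the set. *Sox2* averaged 0.789% and 0.275% at its other CpGs and *Klf4* 3.27% and 0.463%, the latter on 3 CpGs, and *Tfcp2l1* was placed outside the set. Among the methylation enzymes, 8 of 9 were placed. *Dnmt3a* and *Dnmt3b*, which methylate DNA de novo, *Tet3*, which oxidises methylated cytosine, and *Uhrf1* had start sites in the set. A further placed start site of *Dnmt3a* lay outside it, in chr12:3890001-3892500 (23.8% and 28.9%), with 0 of 57 and 5 of 160 calls methylated at its other CpGs. *Dnmt3b* averaged 0.535% and 0.630% at its other CpGs (2 of 301 and 4 of 576 calls) and *Tet3* 1.13% and 0.515%. *Dnmt1*, the maintenance enzyme, lay in a dense tile that missed the limit in *Rex1*-low cells, at 16.2% and 22.9%, although its promoter had 0.921% and 0.837% at the other CpGs. The start sites of *Tet1*, *Tet2* and *Tdg* lay in tiles with fewer than 40 shared CpGs. The lists had at most 8 placed genes each, and their shares were not compared with the 54.8% of all placed autosomal promoters.

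Tiles of the set mostly stood alone. No adjacent tile belonged to the set for 5555 of them (88.4%), 345 pairs of neighbours and 12 runs of 3 made up the rest, and there was no run of 4 or more. The 5161 tiles beside the set that did not belong to it and had at least 3 shared CpGs had a median of 7 shared CpGs and medians of 36.3% and 53.9%, with a median change of 14.0 points. By autosome, the median change of the set lay between 0.946 and 1.44 points.

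Chromosome 18 was left out of the rankings of individual tiles. The tile with the most shared CpGs, 220, was chr9:106787501-106790000 in mm9, with 10.5% in *Rex1*-high and 14.95% in *Rex1*-low cells. The next 4 were chr5:66087501-66090000 with 219 CpGs, chr16:94790001-94792500 and chr4:8617501-8620000 with 214 each, and chr14:104865001-104867500 with 212, and none of their levels in either library was outside 8.49% to 9.77%. The number of CpGs per tile had a median of 63 (quartiles 50 and 82).

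The greatest rise was at chr6:64992501-64995000, from 10.8% to 18.7% (165 of 1404 and 248 of 1550 calls methylated). It was followed by chr11:43587501-43590000 (11.4% to 19.1%), chr8:72610001-72612500 (11.1% to 18.5%), chr7:118922501-118925000 (11.6% to 18.9%) and chr3:110052501-110055000 (12.5% to 19.8%). All 5 ended between 18.5% and 19.8%, near the limit. The greatest fall was at chr11:98602501-98605000, from 13.9% to 9.77%, but its pooled share was 15.5% in both libraries, so that this fall depended on the averaging over CpGs. The next were chr12:106575001-106577500 (14.7% to 10.9%), chr3:88425001-88427500 (13.2% to 9.74%), chr17:86012501-86015000 (19.5% to 16.1%) and chr14:25062501-25065000 (14.8% to 11.5%), and the intervals of pooled calls overlapped between libraries in each of the 5. At chr17:86012501-86015000 the pooled share went the other way, from 20.3% to 21.3%.

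The lowest tile by the mean of both libraries, chr4:154230001-154232500, had 2.48% and 3.83%, and the next were chr3:25042501-25045000 (4.44% and 4.93%) and chr3:137527501-137530000 (5.67% and 4.84%). By the mean of both libraries, the highest were the *Nkx2-2* tile, chr4:107475001-107477500 (19.95% and 19.8%) and chr5:137520001-137522500 (19.7% and 19.6%). Just inside the limit in *Rex1*-low cells was chr15:44257501-44260000 at 19.2% and 19.9997%, and just outside was chr14:115490001-115492500 at 16.9% and 20.004%. For the limit of 40 CpGs, chr3:25042501-25045000 had exactly 40, and chr9:102737501-102740000 with 39 was at 6.55% and 7.4%. In all, 181 tiles had exactly 40 CpGs, and 174 tiles with 39 were under 20% in both libraries.

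A run of 3 adjacent tiles was far deeper than the rest. It covered chr17:39980001-39987500, had the most shared CpGs of any run of 3 (434), and took 7.56% of all calls of the set in *Rex1*-high cells and 8.64% in *Rex1*-low cells. The deepest had 580185 and 887094 calls, while no tile elsewhere in the set had more than 8696 in *Rex1*-high cells or more than 13022 in *Rex1*-low cells. Levels of the 3 tiles were ordinary for the set, from 9.52% to 11.2% in *Rex1*-high and from 9.92% to 12.6% in *Rex1*-low cells.

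Single CpGs of the set could change far more than tiles. At least 20 calls in each library were present at 297995, and CpGs of chromosome 18 were left out of the ranking. The greatest rise was at chr3:93250573, from 29.2% (19 of 47 calls) to 100% (28 of 28). It was followed by chr2:127414870 (4.76% to 75%), chr2:164706408 (0 of 28 calls to 69.4%), chr11:94853970 (26.7% to 95%) and chr4:153533858 (11.1% to 78.9%). The greatest fall was at chr13:37918466, from 84.5% (56 of 67 calls) to 8.33% (2 of 24). It was followed by chr6:122436408 (83.02% to 9.52%), chr5:138227285 (77.1% to 3.70%), chr9:40263374 (68.8% to 2.63%) and chr9:62188961 (64.3% to 0 of 23 calls). The sequence around 2 of these 10 was known, and both lay in recognition sites: chr6:122436408 in a TCGA of the *Rimklb* promoter and chr9:62188961 in a CCGG of the *Anp32a* promoter. At 5 of the 10 (chr3:93250573, chr11:94853970, chr13:37918466, chr5:138227285 and chr9:62188961), 2 lines were usable in *Rex1*-high and 1 in *Rex1*-low cells, so that their levels average different numbers of lines. The part of this in their change was not tested.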

How the data were processed

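RRBS libraries of sorted *Rex1*-high and *Rex1*-low cells were compared, 1 per state. Per the study's methods, Bismark and Galaxy made the calls, and the submitters' processing notes give Bismark 0.7 and build mm9. The authors deposited, per line, a position, methylated calls and all calls as text, and a score proportional to their ratio. The calls were used and the score was not. Trimming and the strand of a line are not given in the sources used here.

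Deposited starts were read as counted from 0 and positions are printed counted from 1. If the starts count from 1, printed mm9 positions are 1 too high. Lines with at least 5 calls were kept, the fractions of 1 position averaged, and tiles of 2500 bp cut at multiples of 2500. A tile's level is the unweighted mean over its CpGs. Intervals are 95% Wilson intervals of pooled calls. With 1 library per state and a set chosen by its levels, no p-value was computed. A CpG counted as changed at 20 points, and a tile at 5 points, with intervals that did not overlap.

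Deposited positions are in mm9 and the RefSeq promoters in GRCm38.p6, so no coordinate was carried over. A promoter was placed where every deposited position in its 300 bases fell on one of its CpGs, at least 10 coincided, 6 consecutive CpGs seeding the search, and 1 place in the genome fitted. Of 9048 promoters so placed, 4 lay on another chromosome than RefSeq gives and were dropped, and 2 neighbouring pairs of the remaining 9044 were out of order. This method was chosen after the data were seen, as were the sequence classes and the promoters named by their change, and replaces the planned naming by annotation. Overlapping promoters share CpGs, which were counted once in totals over CpGs.

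Individual tiles were the 5 with the most CpGs, the 5 greatest rises and falls, the 3 lowest and highest and those beside each limit. Individual CpGs, with at least 20 calls in each library, were the 5 greatest rises and falls. Chromosome 18 was left out of both. The set and the gene lists were chosen with earlier results of these data known. Scripts were tested on simulated data. Alternatives varied the call minimum, line merging, CpG number, tile offset, averaging, limit, disagreeing lines, depth, chromosome, promoter matching and sequence class. Python 3.11.15, NumPy 2.4.6, pandas 2.3.3 and matplotlib 3.10.9 were used.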

Additional observations from a re-analysis of the deposited data

Results flagged for a closer look

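The signals below lie outside the autosomal tiles described. On chromosome M, 23.7% of 157984 calls were methylated in *Rex1*-high cells and 25.1% of 103141 in *Rex1*-low cells. Of its lines with at least 100 calls, 28 of 36 in *Rex1*-high cells were at 20% or below, with a median of 0.982%, and 7 were at 80% or above, with a median of 98.4%. In *Rex1*-low cells, 23 of 29 were at 20% or below (median 0.755%) and 5 at 80% or above (median 98.7%). The sequence around these positions was not analysed here. On chromosome X, 103 of 117 CpG-dense tiles were under 20% in both libraries, with medians of 12.2% and 13.8% and a median change of 1.62 points. The difference from the autosomal median was not tested.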

How the results depend on the processing

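Of 82 recomputed values for 12 results, 45 moved past their limits: 1.5 times for the number of tiles, the counting interval for shares and class means, and, for tile medians, the interval of a single median tile, which is not the error of a median over all tiles. The median change, 1.25 points, ran from 0 (medians over CpGs) through 0.116 (CpGs outside sites, in placed promoters only) and 0.439 (limit of 10%) to 1.94 (lines summed and thinned). Summing lines without thinning gave 1.78. A minimum of 10 calls per line gave 91.3% of tiles higher in *Rex1*-low cells, 40.9% of CpGs at 0 in both libraries, 54.2% and 60.5% at recognition sites and 0.832% and 1.00% at other CpGs. Summing lines first gave 94.99% of tiles higher, 42.9% of CpGs at 0, and 53.8% and 59.6% at sites. A minimum of 60 CpGs left 3466 tiles with 42.8% of CpGs at 0, and shifted tiles had 42.5%. Pooled calls gave medians of 13.4% and 14.5% with 76.6% higher, and medians over CpGs gave 0 and 0 with 39.3% higher. A limit of 10% left 794 tiles at 8.48% and 8.93%, 73.0% higher. Without positions whose lines disagreed, medians were 7.32% and 8.48%, 87.1% were higher and 46.2% of CpGs were at 0. Thinning to equal calls, with lines summed, gave 92.6% higher and 49.0% of CpGs at 0. Chromosome X had 103 tiles. Added after seeing the data, CpGs outside sites in placed promoters gave medians of 0.694% and 0.806% over 3322 tiles, 57.3% higher. Requiring 15 coinciding positions gave 0.827% and 0.995% outside sites, and all placed autosomal promoters gave 1.12% and 1.62% there and 56.6% at sites in *Rex1*-low cells. The causes were not tested, except that fewer tiles meet a stricter limit by construction. No paired analysis was possible because each state had 1 library. The median depth of 31 and 38 calls per CpG limits what a level of 0 can show.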
